A study of Zea mays with 12 samples.

Results

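Class III peroxidases are haem enzymes that plants secrete into the cell wall, where they use hydrogen peroxide to oxidise phenolic compounds. The same family can couple wall polymers, lignin precursors and suberin phenolics, which stiffens walls, and can also generate reactive oxygen that loosens them. In the growing zone of a root they are known for this opposing control of wall extension, and in Arabidopsis the level of peroxidase transcripts is part of what sets the border between dividing and maturing cells. The 5 maize transcripts of this family described here are Zm00001d022457, Zm00001d040581 and Zm00001d046186, which fell under water stress, and Zm00001d049071 and Zm00001d037359, which rose. They were selected on this opposite response in the present libraries, so their stress responses are given as a description and without a test. They were 5 of 31 transcripts that the study's tables describe as peroxidase superfamily or family proteins, and 5 of 42976 features in the count table. No individual role is known here for any of the 5, and their place in class III was not checked on sequence.

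Maize of the inbred line FR697 was grown in vermiculite in the dark, and RNA was taken from the tips of primary roots. Water-stressed seedlings (WS) stood at −1.6 MPa and well-watered seedlings (WW) at −0.02 MPa, and tips were taken 48 h or 24 h after transplanting, which gave the groups WS48, WS24, WW48 and WW24 with 3 libraries each. Each library pooled tips of several seedlings, and the replicates of a group came from separate experiments according to the study's methods. The elongation zone was harvested whole, which took 7 mm of a stressed root and 12 mm of a well-watered root, so treatment and length of the harvested piece cannot be told apart. In these bulk samples, fewer cells of a type and less RNA per cell cannot be told apart either.

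Between 40005384 and 54863708 counts per library fell on features, and all 5 transcripts passed the filter on low counts together with 26746 features in all. Reads that did not align made up 12.7 to 15.0% of 11 libraries and 23.1% of WS24 replicate 3, so results that rest on that library are also given without it. The 5 cell division markers on the list, among them the cyclins D4;1 and d5;1, had counts in all 12 libraries. Abundance is given in CPM, a transcript's read count scaled to the effective size of its library. A log2 change was called when the adjusted p of edgeR's quasi-likelihood test was at most 0.05 and its size at least 1. CPM is not corrected for transcript length, so it is compared between groups and not between transcripts.

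Zm00001d040581 was the most evenly lowered of the 3 decreased transcripts. It stood at 130.9, 128.3 and 153.5 CPM in WS48 and at 121.9, 149.3 and 159.8 CPM in WS24, against 774, 837 and 687 CPM in WW48 and 647, 812 and 873 CPM in WW24. All 6 stressed libraries lay below all 6 well-watered libraries, and neither the 2 stressed groups nor the 2 well-watered groups could be told apart by their ranges. The log2 change was −2.48 (SE 0.134) for WS48 over WW48, −2.50 (SE 0.135) for WS48 over WW24 and −2.44 (SE 0.134) for WS24 over WW24. These are decreases of 5.57-fold, 5.65-fold and 5.41-fold, so nearly the whole decrease was present at 24 h.

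In Zm00001d046186 the decrease came in steps. Its abundance was 1.47, 1.45 and 2.34 CPM in WS48 and 4.56, 5.30 and 9.47 CPM in WS24, against 35.2, 37.2 and 42.2 CPM in WW48 and 37.9, 34.3 and 41.9 CPM in WW24. The ranges ordered the groups as well-watered above WS24 and WS24 above WS48, with no overlap at either step, while the well-watered groups overlapped. The log2 change was −4.44 (SE 0.265) for WS48 over WW48, a 21.7-fold decrease, and −2.57 (SE 0.235) for WS24 over WW24, a 5.93-fold decrease.

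The abundance of Zm00001d022457 was low under stress and uneven among well-watered libraries. It had 0.413, 0.255 and 0.290 CPM in WS48 and 0.0442, 0.106 and 0.122 CPM in WS24, from 44 and 12 counts over the 3 libraries of each group. In WW48 it had 15.1, 42.6 and 2.19 CPM and in WW24 1.62, 1.62 and 6.18 CPM. No stressed library reached a well-watered one, but the highest WW48 library was 19.5 times the lowest. The standard deviation of its log2 CPM within WW48 was 2.16, against a median of 0.142 over the 21984 features with a mean of at least 1 CPM, and 0.0955% of those features had a wider one. The log2 change was −5.96 (SE 0.981) for WS48 over WW48, −3.30 (SE 0.974) for WS48 over WW24 and −5.08 (SE 1.20) for WS24 over WW24. Without WW48 replicate 2 the mean of WW48 was 8.64 ± 9.13 CPM (SD, n = 2), against 19.97 ± 20.65 CPM (SD, n = 3) with it, and the change from WW48 was −4.76. Leaving out WW24 replicate 3 moved the changes from WW24 to −2.34 for WS48 and −4.13 for WS24.

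**Figure D1:**
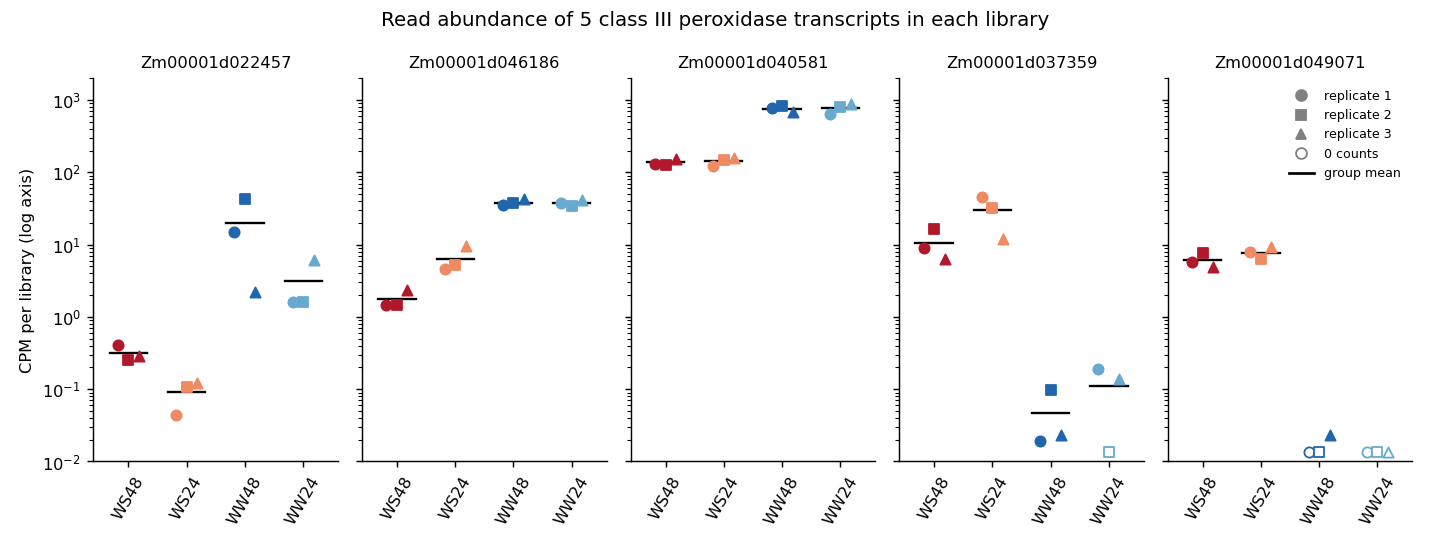
CPM of each of the 5 transcripts (log axis) in the 12 libraries, by group, with the group mean as a bar and libraries without counts as open symbols at the foot. The 3 transcripts on the left are lower in every stressed library than in every well-watered one and the 2 on the right are higher, while Zm00001d022457 spreads from 2.19 to 42.6 CPM within WW48.

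Zm00001d037359 was nearly absent without stress. It had 8.99, 16.8 and 6.35 CPM in WS48 and 45.2, 32.1 and 11.9 CPM in WS24, whereas WW48 held 6 counts and WW24 15 counts over 3 libraries each, with 0 counts in WW24 replicate 2. Every stressed library stood above every well-watered one, and WS24 and WS48 overlapped. As a ratio of counts, WS48 was 243 times WW48, with an exact 95% interval from 112 to 664 that covers counting error only. The fitted log2 change was 7.84 (SE 0.822) for WS48 over WW48, 6.51 (SE 0.720) for WS48 over WW24 and 7.99 (SE 0.713) for WS24 over WW24. Without WW48 replicate 2, which held 4 of the 6 counts, the first of these was 8.81, and without WW24 replicate 1 the changes from WW24 were 7.16 for WS48 and 8.64 for WS24.

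Zm00001d049071 had the fewest well-watered counts of the 5. Its abundance was 5.71, 7.63 and 4.97 CPM in WS48 and 7.94, 6.26 and 9.15 CPM in WS24, from 848 and 1028 counts. WW48 held 1 count, in replicate 3, and WW24 held none. All but 1 of its counts thus came from stressed libraries, and the 2 stressed groups overlapped. The ratio of WS48 to WW48 was 832, with an interval of 149 to 32900. Against WW24, the exact interval for counting error had a lower limit of 215 for WS48 and 272 for WS24, and no upper limit. With an assumed floor of 3 counts over the WW24 group, the ratios were 265 for WS48 and 335 for WS24, which are not lower limits.

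All 5 transcripts had the same call in the 3 stress comparisons, which is the property that selected them, and nothing is read from that count. Over all features, 7.2% were called higher and 6.88% lower in WS48 over WW48. The shares were 7.84% higher and 4.79% lower in WS48 over WW24, and 9.27% higher and 5.64% lower in WS24 over WW24.

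How far the responses had settled by 24 h was asked by comparing WS48 with WS24. This comparison did not choose the transcripts, although it shares libraries with those that did. Zm00001d046186 fell further, by a log2 change of −1.87 (SE 0.261, adjusted p = 0.00429, edgeR quasi-likelihood test with Benjamini-Hochberg adjustment over 26746 features). It was lower in all 3 WS48 libraries than in any WS24 library. Without WS24 replicate 3, which held its highest stressed value, the change was −1.50 (adjusted p = 0.00667). A stricter test, glmTreat, which asks whether the change exceeds a log2 size of 1, did not call it (adjusted p = 0.39). It was 1 of 5 transcripts called lower and none was called higher, against 0.568% and 0.34% of all features. At an unadjusted p under 0.05, 2 of the 5 were lower and none higher, and DESeq2 called 1 lower and none higher.

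Zm00001d037359 had a log2 change of −1.48 in WS48 over WS24 (SE 0.440, adjusted p = 0.117) and was not called. Its WS24 libraries were the most spread of any stressed values among the 5, with a highest value 3.79 times the lowest. Without WS24 replicate 3, its lowest WS24 library, the WS24 mean was 38.7 ± 9.21 CPM (SD, n = 2) and the change of −1.86 was called (adjusted p = 0.0367). The part of the share of unaligned reads in this was not tested. The changes of the others were 1.79 (SE 1.55, adjusted p = 0.666) for Zm00001d022457, −0.35 (SE 0.233, adjusted p = 0.553) for Zm00001d049071 and −0.06 (SE 0.128, adjusted p = 0.878) for Zm00001d040581. The value of Zm00001d022457 rests on 44 counts in WS48 and 12 in WS24.

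Between the well-watered groups, WW48 over WW24, no transcript of the 5 was called, against 0.789% of features called higher and 0.191% lower. At an unadjusted p under 0.05, 1 of the 5 was higher and none lower, and DESeq2 called none. That one was Zm00001d022457, at a log2 change of 2.67 (SE 0.776, adjusted p = 0.0943). Its call depended on single libraries, since without WW48 replicate 3 the change was 3.20 and was called (adjusted p = 0.011) and without WW48 replicate 2 it was 1.47 (adjusted p = 0.34). Zm00001d040581 and Zm00001d046186 had changes of −0.02 (SE 0.127) and 0.01 (SE 0.215), and for Zm00001d049071 no change is given because WW48 and WW24 held 1 and 0 counts.

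Whether the stress response itself differed between the times was tested as WS48 over WW48 minus WS24 over WW24. Both of these comparisons had selected the transcripts, so the p-values are not independent of that choice and nothing is read from the count of calls. Zm00001d046186 was called, with a difference of −1.87 (SE 0.339, adjusted p = 0.0315), a response 3.67-fold deeper at 48 h. It was 1 of 5 called lower and none was called higher, against 0.254% and 0.131% of all features. Counts at an unadjusted p under 0.05 were the same, and so were those of DESeq2. The call was lost in 6 of 12 fits that left out 1 library, namely WW24 replicates 2 and 3, WS24 replicate 2, WW48 replicate 2 and WS48 replicates 1 and 2, with adjusted p-values of 0.0747, 0.0627, 0.0522, 0.0533, 0.119 and 0.102. The difference stayed between −2.15 and −1.50 in all 12. Under glmTreat, at a log2 size of 1, the difference was not called (adjusted p = 1). For Zm00001d040581 the difference was −0.04 (SE 0.180, adjusted p = 0.951). Zm00001d022457 and Zm00001d037359 were not called (adjusted p = 0.891 and 0.992, edgeR), and few counts in some groups leave their differences undetermined. Their approximate SE of 1.97 and 2.81 are unreliable, since the 2 responses of Zm00001d037359 had SE of 0.822 and 0.713.

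**Figure D2:**
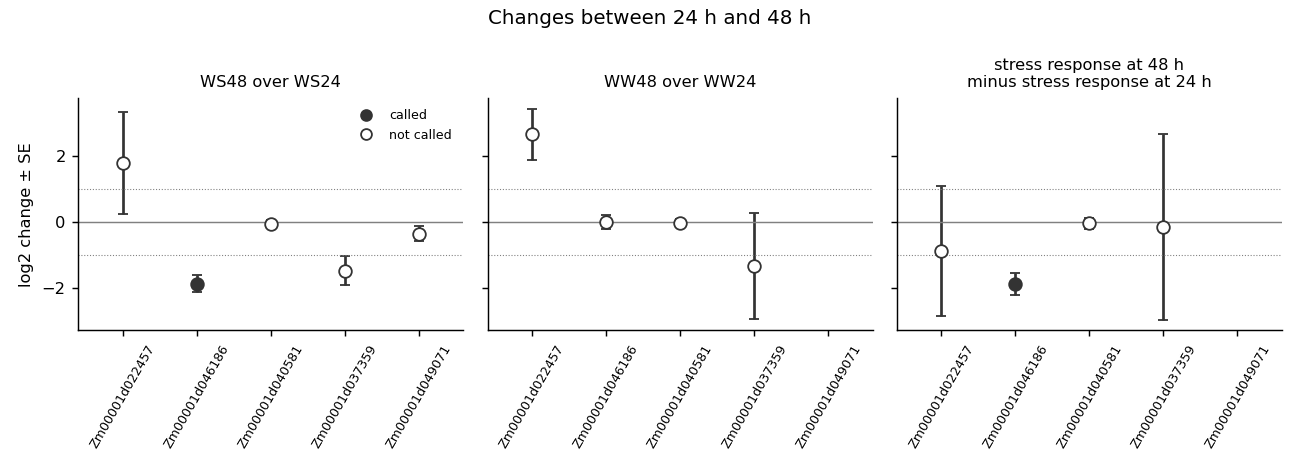
Log2 change (± SE) of the 5 transcripts for WS48 over WS24, for WW48 over WW24 and for the stress response at 48 h minus that at 24 h, with filled symbols for calls and dotted lines at a log2 size of 1. Zm00001d046186 is the one filled symbol in the first and last panels, at −1.87 in both, and Zm00001d049071 is drawn in the first panel only because its well-watered groups held 1 and 0 counts.

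Of the 3 decreased transcripts, 2 (Zm00001d022457 and Zm00001d046186) belong to one orthogroup of the study's ortholog analysis, which holds 10 of the 31 described peroxidases. Neither increased transcript was in it. Zm00001d022457 also lies between Zm00001d022456 and Zm00001d022458 in the order of ID numbers, and each of these is a peroxidase of that orthogroup. Zm00001d022456 stood at 31.8 to 38.6 CPM in WS48 and 28.1 to 29.7 CPM in WS24, against 103 to 120 CPM in WW48 and 71.9 to 101 CPM in WW24. Zm00001d022458 stood at 228 to 273 CPM in WS48 and 176 to 254 CPM in WS24, against 732 to 1070 CPM in WW48 and 681 to 965 CPM in WW24. Their log2 changes in WS48 over WW48 were −1.68 (SE 0.121) and −1.76 (SE 0.176), against −5.96 for Zm00001d022457.

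The 2 neighbours in ID order did not share the spread of Zm00001d022457 within WW48. Their highest WW48 library was 1.17 and 1.46 times the lowest, and in Zm00001d022458 it was replicate 1, whereas in Zm00001d022457 it was replicate 2. How reads shared by near-identical copies were counted is not stated in the study's methods, so the values of all 3 are uncertain to that extent. Coordinates of the genome build used for the counts were not used here.

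**Figure D3:**
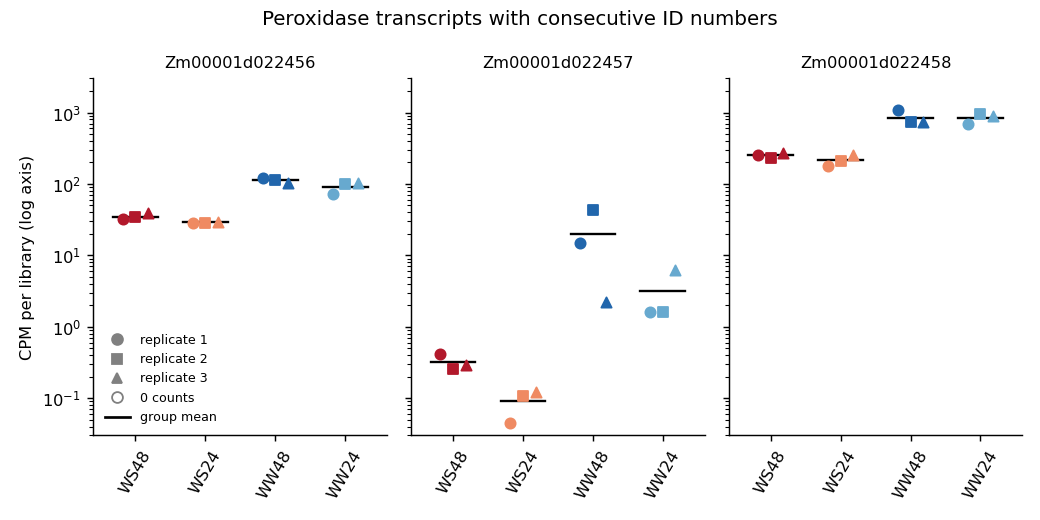
CPM (log axis) of Zm00001d022456, Zm00001d022457 and Zm00001d022458 in the 12 libraries by group, with the group mean as a bar. All 3 are lower in each stressed library than in each well-watered one, and the WW48 libraries of Zm00001d022457 differ by 19.5 times where those of its neighbours differ by 1.17 and 1.46 times.

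Of the other 26 described peroxidases, 23 passed the filter. In WS48 over WW48, 18 were called lower and 2 higher, with a median log2 change of −1.68 beside 0.01 over all features tested. WS48 over WW24 gave 18 lower and 3 higher and WS24 over WW24 gave 14 lower and 3 higher. Of all features, 6.88%, 4.79% and 5.64% were called lower in these comparisons, in that order, and 7.2%, 7.84% and 9.27% higher. Of the 31 descriptions, 28 came from the study's table of transcripts that had changed in these same libraries. Neither these counts nor the median is therefore independent evidence of a direction. The widest decreases in WS48 over WW48 among the others were −3.53 for Zm00001d045846, −3.38 for Zm00001d007160, −3.15 for Zm00001d002898, −3.14 for Zm00001d041827 and −2.42 for Zm00001d024738. Zm00001d007160 belongs to the shared orthogroup and had 21.6 to 35.4 CPM in WS48, against 201 to 392 CPM in WW48.

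Of the 2 other peroxidases called higher in WS48 over WW48, Zm00001d014341 had 109.6 to 134.0 CPM in WS48 and 124 to 167 CPM in WS24, against 13.9 to 19.3 CPM in WW48 and 18.1 to 28.6 CPM in WW24, a log2 change of 2.81 (SE 0.179) in WS48 over WW48. Zm00001d029604, the one increased member of the shared orthogroup, had 6.12 to 7.57 CPM in WS48, against 1.37 to 1.83 CPM in WW48 (log2 change 2.07, SE 0.237). The other one called higher in the comparisons with WW24 was Zm00001d009140, at 2.23 (SE 0.510) for WS48 and 2.53 (SE 0.513) for WS24, and its change of 1.22 (SE 0.484) in WS48 over WW48 was not called. All 3 were detected in every well-watered library, unlike Zm00001d049071, which was at 0 counts in 5 of those 6. Of the 31 described peroxidases, 3 did not pass the filter, and 2 of these, Zm00001d032854 and Zm00001d035055, had 0 counts in all 6 stressed libraries and most of their counts in WW48 replicate 2, at 5.52 and 4.13 CPM, and WW24 replicate 1, at 1.04 and 1.45 CPM. Zm00001d022457 was highest in the first of these libraries but not in the second.

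**Figure D4:**
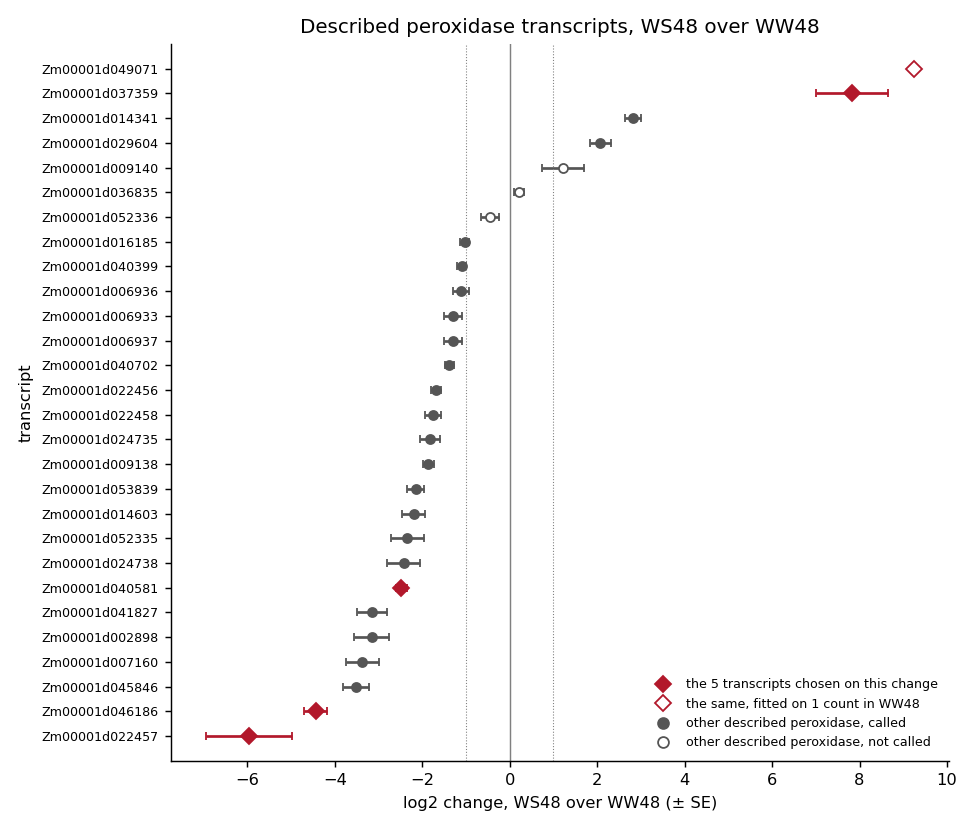
Log2 change of WS48 over WW48 (± SE) for the 28 described peroxidases that were tested, with diamonds for the 5 transcripts chosen on this change, filled symbols for calls and an open diamond without SE for Zm00001d049071, whose value rests on 1 count in WW48. The others lie between −3.53 and 2.81.

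Between the times, Zm00001d002898 was the one other peroxidase called lower in WS48 over WS24, at a log2 change of −1.70 (SE 0.393, adjusted p = 0.0467, edgeR). It had 2.52 to 5.78 CPM in WS48 and 8.56 to 16.3 CPM in WS24. Zm00001d052336, of the shared orthogroup, was the one called higher, at 1.17 (SE 0.211, adjusted p = 0.0144). Over all features, 0.568% were called lower and 0.34% higher. The call on Zm00001d002898 was lost without WS48 replicate 2 or 3, any one replicate of WS24, WW48 replicate 2 or 3, or WW24 replicate 1, with adjusted p-values of 0.0524 to 0.167. That on Zm00001d052336 was lost without WS48 replicate 1 or 3 or WS24 replicate 1 or 2, with adjusted p-values of 0.0531 to 0.0755. Under glmTreat neither was called (adjusted p = 1 for both). In the difference of the stress response between the times, none of the other 23 was called by edgeR, with 5 lower and 1 higher at an unadjusted p under 0.05, and DESeq2 called 1 lower.

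The summed reads of the described peroxidases were fewer under stress. Summed over the 31 transcripts they made 1343 to 1541 CPM in WS48 and 1397 to 1707 CPM in WS24, against 3597 to 4305 CPM in WW48 and 3290 to 4164 CPM in WW24. The ratio of means was 0.363 for WS48 over WW48. The 3 decreased transcripts supplied 9.39 to 10.1% of these reads in WS48 and 19.1 to 23.3% in WW48, nearly all from Zm00001d040581. The 2 increased transcripts supplied 0.734 to 1.81% in WS48, 1.23 to 3.80% in WS24 and at most 0.00582% in any well-watered library. The gain in their reads, with group means of 16.8 CPM in WS48 and 0.054 CPM in WW48, was thus small beside the fall in the sum. Of the 31 transcripts, 28 were described in the study's table of transcripts that had changed in these same libraries. The sum is therefore not independent evidence of a direction. Neither the sum nor the shares describe peroxidase reads beyond this list.

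For each transcript the 3 features with the nearest profile were sought among 21983 others, by the root mean square difference of centred log2 CPM over the 12 libraries. Zm00001d040581 had the closest matches, with an organic cation/carnitine transporter 2 gene (Zm00001d021781) at a distance of 0.069, metacaspase 5 (Zm00001d010675) at 0.128 and a leucine-rich repeat kinase gene (Zm00001d041773) at 0.143. The transporter stood at 24.7 ± 1.52 CPM in WS48, against 141.6 ± 6.91 CPM in WW48 (SD, n = 3). Nearest to Zm00001d046186 were a CBS domain gene (Zm00001d017375) at 0.461, a DUF1218 gene (Zm00001d038325) at 0.471 and Zm00001d004721, which has no description, at 0.494. Zm00001d038325 showed the same descent, with 0.687 ± 0.304 CPM in WS48 and 3.16 ± 1.31 CPM in WS24, against 18.7 ± 3.38 CPM in WW48.

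Nearest to Zm00001d022457 was cell wall invertase 2 (Zm00001d025354), an enzyme that splits sucrose in the wall, at a distance of 0.828, before an HXXXD-type acyltransferase (Zm00001d039615) and a DUF247 gene (Zm00001d024489). The invertase had 7.02, 16.7 and 3.03 CPM in WW48, the same order of libraries as Zm00001d022457, over which its nearness was measured. The acyltransferase and the DUF247 gene were instead highest in WW48 replicate 1, at 15.9 and 6.87 CPM. Zm00001d049071 was nearest to an assembled transcript without description (MSTRG.3281) at 0.369, a gene described as CAP160 protein (Zm00001d032519) at 0.392 and alpha-galactosidase 1 (Zm00001d032608) at 0.41. The galactosidase stood at 21.1 ± 3.78 CPM in WS48, against 0.141 ± 0.0396 CPM in WW48. The 2 increased peroxidases were 0.931 apart from each other.

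The nearest profiles to Zm00001d037359 were an ABC-2 type transporter (Zm00001d028689) at 0.536, a cytochrome P450 of subfamily 86B (Zm00001d013979) at 0.666 and a GDSL-like lipase (Zm00001d022496) at 0.692. With a prior count of 0.5 in place of 2, only the transporter stayed among the 3 nearest, and the P450 and the lipase did not. The P450, whose relative in Arabidopsis makes long-chain hydroxy acids for suberin, had 8.17 ± 1.37 CPM in WS48 and 16.9 ± 2.78 CPM in WS24, against 0.0369 ± 0.0360 CPM in WW48. It is one of 7 listed markers of suberised layers, of which 6 were called higher and 1, a glycerol-3-phosphate acyltransferase 1 gene (Zm00001d041596), lower in WS48 over WW48. The shares of all features were 7.2% higher and 6.88% lower. Summed, the markers had 20.3 to 30.8 CPM in WS48 and 43.4 to 68.5 CPM in WS24, against 1.76 to 4.85 CPM in WW48 and 2.70 to 3.39 CPM in WW24, and 1 of them, a P450 of subfamily 86A (Zm00001d002687), had 0 counts in the 3 WW48 libraries. WS24 replicate 3 was the lowest of its group in both this sum and Zm00001d037359. Most of these markers were picked by the study as changed in these libraries, and their part in the rise of Zm00001d037359 was not tested.

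**Figure D5:**
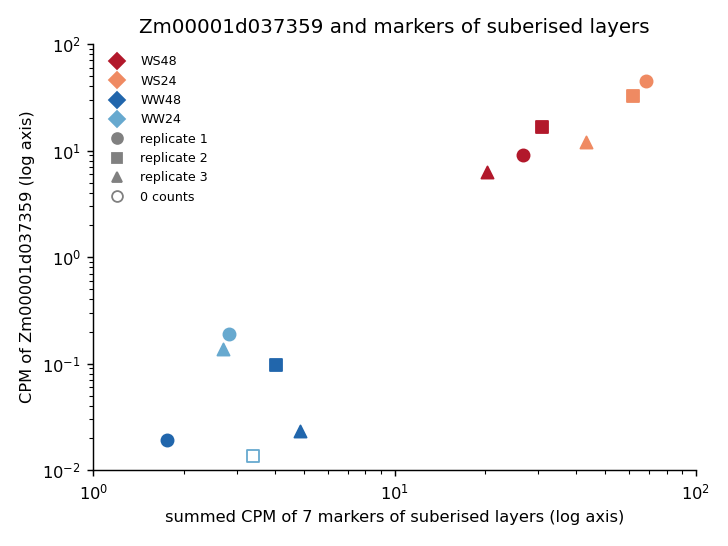
CPM of Zm00001d037359 against the summed CPM of 7 markers of suberised layers in the 12 libraries (both axes log), coloured by group, with an open symbol at the foot for the library without counts. The 6 stressed libraries lie at 20.3 to 68.5 summed CPM and 6.35 to 45.2 CPM, apart from the well-watered libraries.

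Genes that supply or remove hydrogen peroxide, the substrate of peroxidases, were read beside them from lists drawn from the study's descriptions. Of 4 genes that remove it, 3 were called higher in WS48 over WW48 and all 4 in WS24 over WW24. Of all features, 7.2% were called higher and 6.88% lower in the first comparison, and 9.27% higher in the second. Since the study gives descriptions mainly for transcripts it had picked as changed, counts from these lists are not independent evidence of a direction. Catalase 1 (Zm00001d054044) had 308, 298 and 329 CPM in WS48, against 33.9, 69.7 and 25.7 CPM in WW48, a log2 change of 2.86 (SE 0.349), and thylakoidal ascorbate peroxidase (Zm00001d016802) had one of 2.02 (SE 0.261). Among 3 tested genes that produce it, polyamine oxidase 3 (Zm00001d036513) was called higher at 1.21 (SE 0.256) and a copper amine oxidase (Zm00001d006638) lower at −1.64 (SE 0.173). The copper amine oxidase had 2.45 to 2.65 CPM in WS48, against 6.65 to 8.68 CPM in WW48.

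Laccases, which like peroxidases oxidise lignin precursors, were among 15 listed genes of lignin synthesis and dirigent proteins, of which 7 were called higher and 2 lower in WS48 over WW48. Beside these counts and those of the marker lists below, 7.2% of all features were called higher and 6.88% lower. A laccase 7 gene (Zm00001d048759) had a log2 change of 2.08 (SE 0.190) and a hydroxycinnamoyl transferase (Zm00001d003856), an enzyme on the route to lignin precursors, one of 4.12 (SE 0.442). Those called lower were a cinnamyl alcohol dehydrogenase homolog 2 gene (Zm00001d020401), at −2.23 (SE 0.195), and a dirigent-like gene (Zm00001d004753), at −1.52 (SE 0.415). Summed over the list, abundance was 333.5 to 398.9 CPM in WS48, against 596.6 to 823.2 CPM in WW48. The fall of this sum rests on Zm00001d020401, which alone had group means of 97.8 CPM in WS48 and 458.4 CPM in WW48. In WS24 the sum was 466.6 to 487.9 CPM, against 403.2 to 523.2 CPM in WW24. Listed markers of secondary walls gave 3 higher and 1 lower of 4, the lower being cellulose synthase A9 (Zm00001d041972), at −1.76 (SE 0.214), and 3 of the 4 are laccases that the lignin list also holds. Summed over the 4 markers, abundance was 29.8 to 39.8 CPM in WS48, against 37.7 to 63.2 CPM in WW48, with overlapping ranges. This sum mixes opposite changes, since the 3 laccases rose. Cellulose synthase A9 alone had means of 13.2 CPM in WS48 and 44.9 CPM in WW48, where the mean sum was 46.6 CPM. At 24 h the sum ran the other way, at 46.3 to 69.9 CPM in WS24, against 28.8 to 38.2 CPM in WW24. Cellulose synthase A9 fell there too, with means of 15.3 and 30.6 CPM. Of the 5 cell division markers, 3 were called higher and 2 lower in WS48 over WW48, with sums of 115.9 to 120.2 CPM in WS48 and 87.9 to 107 CPM in WW48. The higher sum rests on 1 gene, Zm00001d045478, with means of 65.9 CPM in WS48 and 11.8 CPM in WW48. The 2 called lower were Zm00001d022226, at 15.4 against 32.3 CPM, and Zm00001d033822, at 21.2 against 51.2 CPM. These lists, too, hold mostly genes that the study had picked as changed, and the part of a shift in cell types in the peroxidase values was not tested.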

How the data were processed

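The authors aligned paired-end reads of strand-specific libraries to B73 RefGen_v4, with an assembly specific to FR697, and counted reads over exons. The submitters' processing notes name HISAT2 1.0 and HTSeq 0.6.1. Whether the counting used strand is not stated in those sources, so antisense and overlapping genes are uncertain. The deposited raw counts were analysed. The authors also deposited normalized values rounded to whole numbers, treated as a score and not tested. Rows that name no feature, 19.3 to 29.3% of all counts in a library, entered neither the tests nor the library sizes.

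Counts were fitted with edgeR 4.0.16 in R 4.3.3 (filterByExpr with a minimum count of 10, TMM factors of 0.926 to 1.06, 1 mean per group over 12 libraries, quasi-likelihood F-test, Benjamini-Hochberg adjustment), with a biological coefficient of variation of 15.9%. An approximate SE was taken as the absolute log2 change over the root of F, which is unreliable for small changes on few counts. Count ratios have exact 95% intervals for counting error only. Nearest profiles used a prior count of 2 and features with a mean of at least 1 CPM.

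The members, the lists and the rule for named genes were chosen with earlier results of these data known. The rule took the 5 members, described peroxidases within 3 ID numbers of one, the 5 others with the widest decrease and all others called higher in WS48 over WW48, 3 nearest profiles per member and up to 2 genes each way per list. Zm00001d009140, Zm00001d052336, Zm00001d032854, Zm00001d035055, Zm00001d002687 and Zm00001d045478 fall outside it and were chosen after their values were seen. Descriptions and orthogroups came from the study's tables, and no measured value was taken from them. No replicates agreed within sampling noise (chi-square per gene 6.99 to 53.6). Alternatives were other scalings, filters and tests (DESeq2 1.42.0, glmTreat), fits of only the groups compared, a replicate block and fits without each library.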

Additional observations from a re-analysis of the deposited data

Results flagged for a closer look

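The stress response of Zm00001d046186 differed between the times, with a log2 difference of −1.87 between the response at 48 h and that at 24 h (adjusted p = 0.0315, edgeR quasi-likelihood test). It is singled out because the test of the difference itself passed the threshold. All 3 WS48 libraries lay below all 3 WS24 libraries, while the WW48 and WW24 libraries overlapped. The transcript was chosen on its stress response in the same libraries, and the call did not survive leaving out any one of 6 of the 12 libraries. Under glmTreat, which asks whether the difference exceeds a log2 size of 1, it was not called either (adjusted p = 1).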

How the results depend on the processing

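The stress changes of the 5 transcripts kept their direction in all 285 values under alternatives. Without scaling factors the median of all features moved by 0.128 to 0.141 (log2) in the stress comparisons. DESeq2 gave Zm00001d049071 changes of 10.48 over WW24 in WS48 and 10.84 in WS24, against 11.1 and 11.45 by edgeR. WW24 held 0 counts of this transcript, so its counts set no upper limit and these values depend on the method. Under glmTreat the described peroxidases called in WS48 over WW24 were 13 lower and 3 higher, against 21 and 5, those in WS48 over WS24 were 0 lower and 0 higher, against 2 and 1, and in the difference between times 0 were lower, against 1. Zm00001d046186 was then not called in WS48 over WS24 (−1.87, adjusted p = 0.39) or in the difference (−1.87, adjusted p = 1). In the difference, 2 were called lower without the low-count filter and by DESeq2.

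Replicate numbers did not pair the libraries. Same-numbered libraries had correlations of their deviations of −0.504 to 0.111, with 1 of 18 pairs above 0.1, and 1 of 12 libraries matched best with its own number. Differently numbered libraries had correlations of −0.339 to 0.477, and whether experiments were shared under other numbers was not tested. With the replicate block, 2 described peroxidases were called lower in the difference between times, against 1, and no call on the 5 transcripts changed.

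Leaving out each library in turn gave, in WS48 over WW48, 7.35 to 8.81 for Zm00001d037359 and 8.70 to 11.10 for Zm00001d049071. In WS48 over WS24 it gave −1.96 to −1.05 for Zm00001d037359, −0.172 to 0.014 for Zm00001d040581, and 1 to 2 described peroxidases lower and 0 to 1 higher. In WW48 over WW24 it gave 1.47 to 3.62 for Zm00001d022457, −0.136 to 0.072 for Zm00001d040581, −0.071 to 0.083 for Zm00001d046186 and 0 to 1 described peroxidases higher. In the difference between times it gave −1.84 to 0.32 for Zm00001d022457, −0.80 to 0.82 for Zm00001d037359, −0.154 to 0.074 for Zm00001d040581, −2.15 to −1.50 for Zm00001d046186 and 0 to 2 described peroxidases lower. Without WW48 replicate 3, Zm00001d049071 had no well-watered counts, so WW48 over WW24 gave no value. Its 11.10 in WS48 over WW48 came from that fit and is not a measured size. The cause of these changes was not tested. With a prior count of 0.5, 11 of the 15 nearest features were the same, but only 1 of 3 for Zm00001d037359. Counts of 44 or fewer per group limit Zm00001d022457 under stress and both increased transcripts without it.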
